A study of Mus musculus with 8 samples.

Results

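Ribosome biogenesis and nucleolar genes were followed in mouse nerve sheath tumours treated with a MEK inhibitor, an mTOR inhibitor or both. The list held 39 gene symbols. A gene was measured if at least 1 probe set of the array was annotated to that symbol and no other, and the probe set with the highest mean stood for the gene. By this rule 38 of the 39 were measured, among 19938 genes in all. Ppan, a large subunit assembly factor, was the exception, because its probe set is shared with B130055M24Rik. The tumours were primary malignant peripheral nerve sheath tumours (MPNST) of NPcis mice. This genetic model carries mutant alleles of Nf1 and Trp53 in cis on the same chromosome, and every group shares this genotype. Tumours were exposed for 14 hours to the combination of rapamycin (5 mg/kg, intraperitoneal) and PD-0325901 (1.5 mg/kg by oral gavage, 2 times daily), to PD-0325901 alone, to rapamycin alone, or to vehicle, at the same doses throughout. Each of the 4 groups had 2 arrays, 8 in all. Whether the arrays of a group came from separate animals is not stated in the labels, so every p-value covers the spread between these arrays, which may be technical.

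Ribosome production starts in the nucleolus, where RNA polymerase I transcribes the ribosomal DNA into a long precursor. Small nucleolar ribonucleoproteins (snoRNPs) then methylate and pseudouridylate that precursor, and separate sets of assembly factors cut, fold and export the small (40S) and large (60S) subunit particles. The kinase complex mTORC1, which rapamycin inhibits, the ERK pathway, which PD-0325901 blocks at MEK, and the transcription factor Myc are all known regulators of this process, and Myc binds the E-box CACGTG.

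Promoter windows were shown because all 38 measured members had a lower mean in the combination group than in the vehicle group. CACGTG was looked for in them as a known Myc site. A match does not tell which factor binds, and a part of Myc in the members' levels was not tested. The windows run from 250 bases before to 50 bases after each RefSeq gene start (build GRCm38.p6), and 32 of the 38 measured members had one. CACGTG reads the same on both strands and lay in 10 of these 32 windows (31.2%), in 15 of 96 windows of other ribosome biogenesis genes (15.6%) and in 1481 of 15563 windows of measured genes (9.52%). Over all 32851 windows of the table the share was 7.15%. The first 3 members with the motif by the p-value of the PD-0325901 main effect are Ltv1 (chr10:13193088-13193387, minus strand), Imp4 (chr1:34439579-34439878, plus strand) and Rrn3 (chr16:13780449-13780748, plus strand), and the first without it is Wdr12 (chr1:60098451-60098750, minus strand). Capitals mark CACGTG, which starts at base 279 in Ltv1, at base 130 in Imp4 and at bases 36 and 203 in Rrn3, counted from 1 at the 5′ end of the gene's strand.
Ltv1: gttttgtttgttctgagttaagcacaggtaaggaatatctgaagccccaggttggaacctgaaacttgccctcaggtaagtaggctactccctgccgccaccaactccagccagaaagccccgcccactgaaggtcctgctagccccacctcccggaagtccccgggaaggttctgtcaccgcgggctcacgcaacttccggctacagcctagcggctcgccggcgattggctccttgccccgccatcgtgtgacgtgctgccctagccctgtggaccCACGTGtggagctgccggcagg
Imp4: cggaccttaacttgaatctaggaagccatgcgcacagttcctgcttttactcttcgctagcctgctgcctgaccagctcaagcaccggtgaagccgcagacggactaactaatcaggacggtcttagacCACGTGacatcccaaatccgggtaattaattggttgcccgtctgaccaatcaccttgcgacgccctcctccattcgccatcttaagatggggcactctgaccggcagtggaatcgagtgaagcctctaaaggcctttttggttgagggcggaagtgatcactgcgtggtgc
Rrn3: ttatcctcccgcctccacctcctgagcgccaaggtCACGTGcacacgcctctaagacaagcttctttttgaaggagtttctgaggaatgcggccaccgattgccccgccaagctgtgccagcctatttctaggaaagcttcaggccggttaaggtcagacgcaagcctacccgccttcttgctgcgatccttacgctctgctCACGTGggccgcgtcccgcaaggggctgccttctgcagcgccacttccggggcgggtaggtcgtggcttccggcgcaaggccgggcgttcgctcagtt
Wdr12: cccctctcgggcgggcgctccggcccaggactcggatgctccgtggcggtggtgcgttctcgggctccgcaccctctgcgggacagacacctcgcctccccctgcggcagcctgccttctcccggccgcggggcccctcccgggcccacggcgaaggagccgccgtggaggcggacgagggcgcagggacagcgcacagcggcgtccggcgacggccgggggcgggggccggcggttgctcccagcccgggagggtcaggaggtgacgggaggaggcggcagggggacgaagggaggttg
The median log2 difference of the combination from vehicle was -0.70 for the 10 members with CACGTG in the window and -0.69 for the 22 without it. For the rapamycin main effect the medians were -0.41 with it and -0.49 without it, and for the PD-0325901 main effect -0.22 and -0.24. These differences between the 10 and the 22 members were not tested. A match is a description of letters in the window, not of binding. The sequence CCGGAAG, looked for on both strands after the windows had been read, lay in 11 of 32 member windows (34.4%), 44 of 96 windows of the other genes of the pathway (45.8%) and 13.6% of the windows of measured genes.

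The arrays had similar overall scales, with array medians over all probe sets between 7.79 and 7.90 on the log2 scale, but they differed in markers of other cells. The Schwann lineage and MPNST markers, with 10 of 12 measured, had summed log2 levels of 82.48 to 82.61 in the combination arrays, 81.75 to 83.17 in the PD-0325901 arrays, 79.19 to 82.58 in the rapamycin arrays and 82.12 to 82.15 in the vehicle arrays. Of these, the adhesion molecule Ncam1 lay between 10.24 and 11.42, the intermediate filament gene Nes between 8.42 and 11.74, the lineage factor Sox10 between 7.85 and 8.17 and S100b between 7.12 and 7.32. The table holds no background call, so whether Sox10 and S100b were detected cannot be read from these levels. Rapamycin array 1 stood apart: the summed level of 5 adipocyte markers was 50.66 there, against 35.42 to 39.07 on the other 7 arrays, with the adipokine gene Adipoq at 10.26. Rapamycin array 2 had the highest summed level of 6 skeletal muscle markers, at 61.97, and PD-0325901 array 2 the highest of 2 erythroid markers, at 21.78. The summed level of 9 T and NK cell markers was 71.90 and 79.18 in the combination arrays, 70.69 and 76.68 in the PD-0325901 arrays, 65.08 and 65.04 in the rapamycin arrays and 70.79 and 66.95 in the vehicle arrays, with both rapamycin arrays below the other 6. That of 8 endothelial markers was 73.41 and 74.26 in the combination arrays, 72.83 and 77.06 in the PD-0325901 arrays, 81.01 and 77.57 in the rapamycin arrays and 78.16 and 75.47 in the vehicle arrays, with both combination arrays below both vehicle arrays. That of 7 fibroblast markers was 76.40 and 84.31 in the combination arrays, 82.16 and 80.66 in the PD-0325901 arrays, 84.30 and 71.84 in the rapamycin arrays and 70.49 and 84.05 in the vehicle arrays, so it differed more within 3 of the groups than between their means. The 12 macrophage markers summed to 134.71 to 139.45 in the combination arrays, 139.55 to 139.93 in the PD-0325901 arrays, 132.59 to 133.38 in the rapamycin arrays and 132.18 to 135.01 in the vehicle arrays. Since the samples are whole tumour, fewer cells of a type and less RNA per cell cannot be told apart.

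The measured ribosome biogenesis genes had lower mean levels on the combination arrays than on the vehicle arrays. They were chosen with earlier results of these data known, so the counts describe these arrays and are not a test of the list. All 38 measured members had a lower mean in the combination group than in the vehicle group, where 53.7% of all genes did, and the median log2 difference was -0.71, against -0.02 over all genes. For 37 of the 38 both combination arrays lay below both vehicle arrays, a pattern held by 22.3% of all genes, with the exception of Heatr1. The difference was beyond -0.5 for 31 members, against 5.3% of all genes. None of the 38, and none of the 19938 genes, passed an adjusted p of 0.05 in limma, and the smallest adjusted p among the members was 0.359. At an unadjusted p under 0.05 there were 24 lower members and 0 higher, where 4.0% of all genes were lower and 5.08% higher. The number of such members changed with the array left out, while the median stayed between -0.75 and -0.63. With 2 arrays against 2, an exact permutation test cannot give a p below 0.333. Marker lists also differed between these groups: 14 of 14 proliferating cell markers and 7 of 8 endothelial markers had a lower mean in the combination group, with medians of -0.59 and -0.41, while 1 of 9 T and NK cell markers, 3 of 12 macrophage markers and 1 of 7 fibroblast markers did, with medians of 0.69, 0.26 and 0.31. Their part in the members' differences was not tested.

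**Figure D1:**
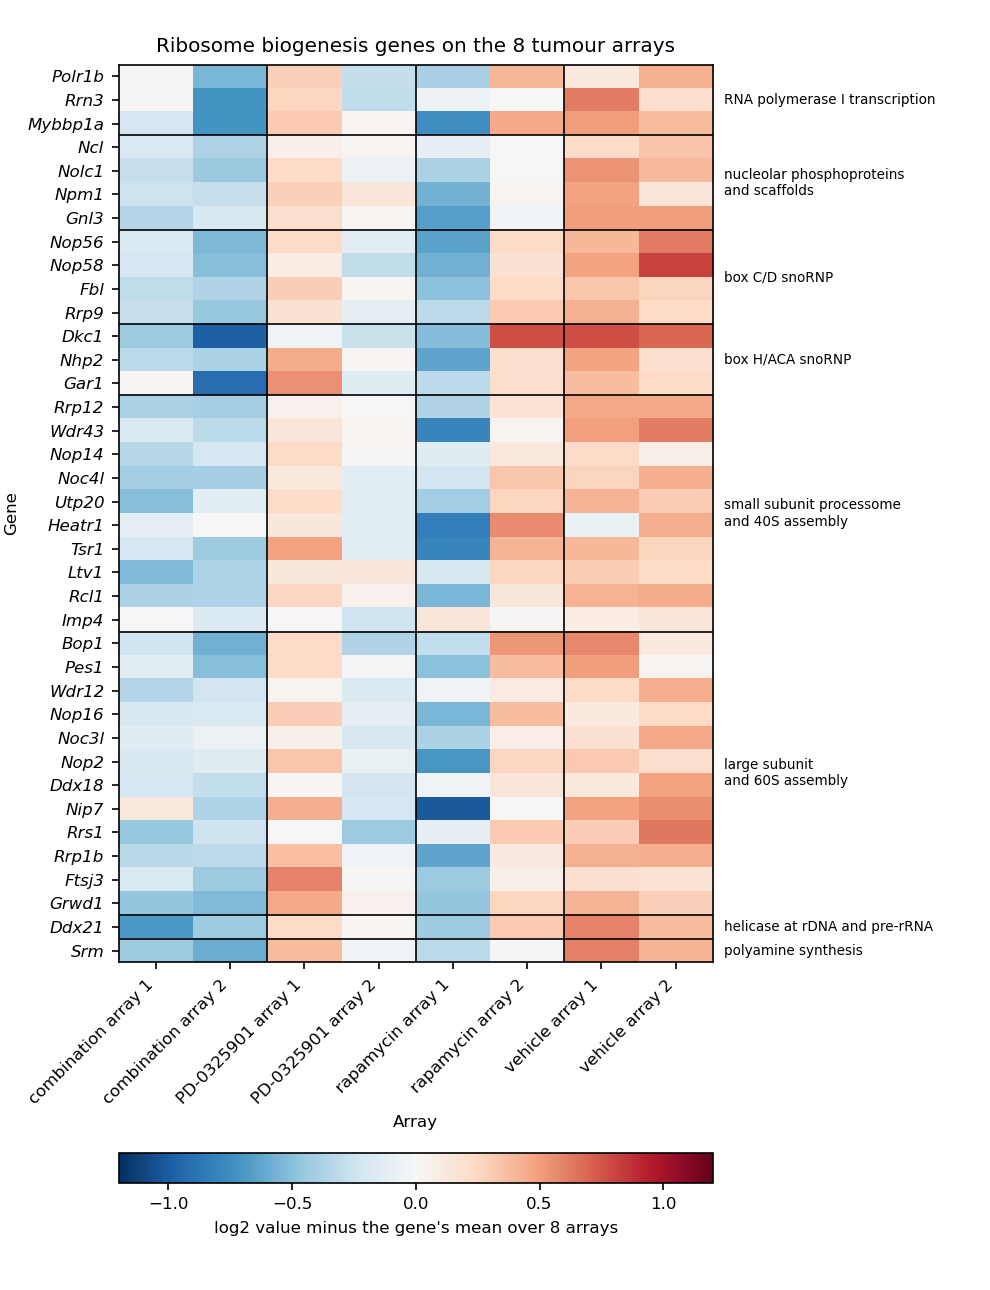
Log2 value of each of the 38 measured ribosome biogenesis genes (rows, by role) on each of the 8 arrays (columns), minus the gene's own mean over the arrays; blue is lower and red higher. Combination array 2 is below the gene's mean for all 38, vehicle array 2 is above it for all 38, and the 2 rapamycin arrays and the 2 PD-0325901 arrays each differ from one another.

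The spread within a group differed strongly between groups. The member score of an array, the mean over the 38 genes of the log2 value centred on the gene's mean, was -0.26 and -0.40 in the combination arrays, 0.23 and -0.10 in the PD-0325901 arrays, -0.43 and 0.22 in the rapamycin arrays, and 0.38 and 0.36 in the vehicle arrays. The group mean was -0.33 ± 0.10 for the combination, 0.07 ± 0.23 for PD-0325901, -0.11 ± 0.46 for rapamycin and 0.37 ± 0.01 for vehicle (SD, n = 2 each). Thus both vehicle arrays were above the other 6, while rapamycin array 1 was the lowest of all and rapamycin array 2 lay beside PD-0325901 array 1. Members above their own mean numbered 4 and 0 on the combination arrays, 36 and 14 on the PD-0325901 arrays, 1 and 33 on the rapamycin arrays, and 37 and 38 on the vehicle arrays. Of all genes, 44.0% and 50.0% were above their own mean on the combination arrays, 52.1% and 43.6% on the PD-0325901 arrays, 43.8% and 48.3% on the rapamycin arrays, and 53.2% and 49.1% on the vehicle arrays. The median absolute gap between the 2 arrays of a group was 0.68 for members in the rapamycin group, against 0.20 for all genes, and 0.30 in the PD-0325901 group, against 0.13 for all genes. Rapamycin array 1 was below rapamycin array 2 for 37 of 38 members (52.0% of all genes), and PD-0325901 array 2 was below PD-0325901 array 1 for 37 of 38 (55.2% of all genes).

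The arrays that split the rapamycin group also split it for other lists. The score of 14 proliferating cell markers was -0.09 and -0.35 in the combination arrays, 0.11 and -0.31 in the PD-0325901 arrays, -0.61 and 0.49 in the rapamycin arrays, and 0.39 and 0.36 in the vehicle arrays. Its lowest array was rapamycin array 1, as for the ribosome biogenesis genes. The adipocyte score was 2.43 on that array and between -0.62 and 0.11 on the other 7, and the Schwann lineage score was -0.28 there and between -0.03 and 0.12 elsewhere. The part of these differences in the members' values was not tested. Medians over the members that rest on the rapamycin group, and the orders of the groups, are therefore given with and without rapamycin array 1. Counts of members whose arrays did not overlap in a comparison with that group, and most values of single genes, include it.

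**Figure D2:**
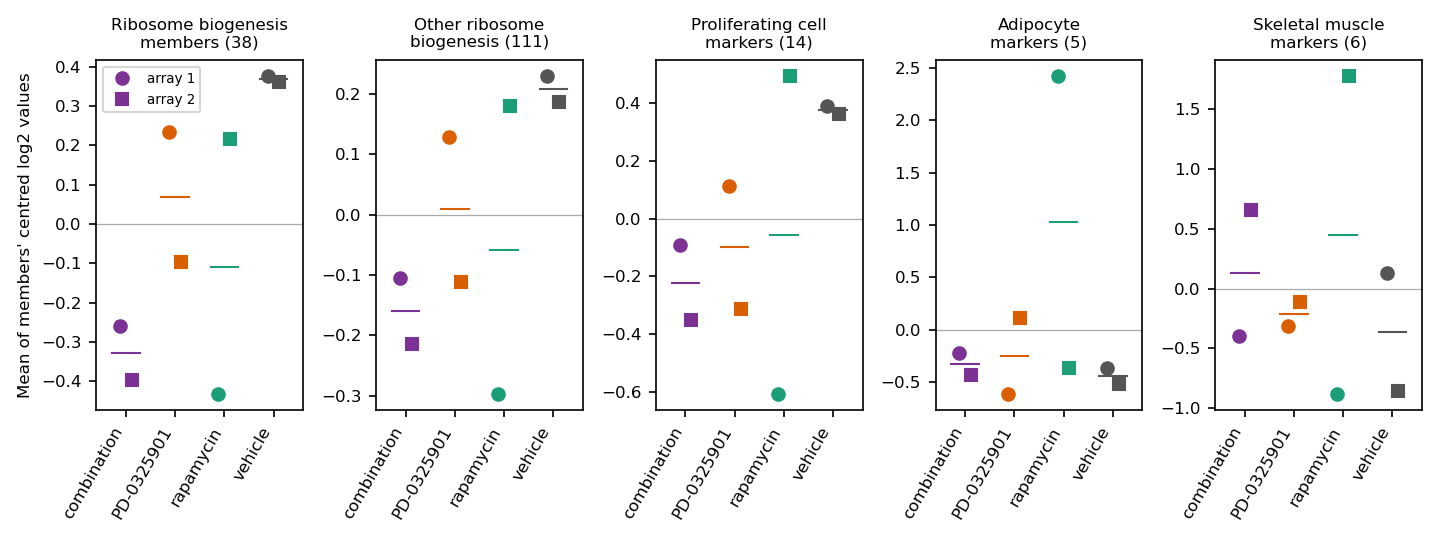
Score of each array, the mean over a list's genes of the log2 value centred on the gene's mean over 8 arrays, for the 38 measured members and 4 other lists; points are arrays and lines are group means. For the members the vehicle arrays sit at 0.38 and 0.36 and the combination arrays at -0.26 and -0.40, while rapamycin array 1 is lowest for the members (-0.43) and highest for adipocyte markers (2.43).

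The RNA polymerase I genes among the members were lower in the combination arrays than in the vehicle arrays, with a wide spread within groups. Polr1b encodes the second-largest subunit of the polymerase. Polr1b had log2 values of 9.87 and 9.33 in combination tumours, 10.16 and 9.59 in PD-0325901 tumours, 9.48 and 10.28 in rapamycin tumours and 10.01 and 10.30 in vehicle tumours. Both combination arrays were below both vehicle arrays, but the arrays of each single drug reached into or past the vehicle range, and the difference of the combination from vehicle was -0.56 ± 0.35 (SE, limma adjusted p = 0.695). Rrn3 encodes the initiation factor that brings the polymerase to the promoter. Rrn3 had 10.07 and 9.35 in combination tumours, 10.32 and 9.76 in PD-0325901 tumours, 9.99 and 10.05 in rapamycin tumours and 10.68 and 10.28 in vehicle tumours. Combination array 2 was the lowest and vehicle array 1 the highest, and the groups with PD-0325901 alone and vehicle overlapped. Its log2 difference of the combination from vehicle was -0.77 ± 0.30 (limma adjusted p = 0.535). Mybbp1a, a nucleolar protein bound to the polymerase and to ribosomal DNA, had a difference of -0.90 ± 0.40 (limma adjusted p = 0.582).

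The 4 nucleolar phosphoproteins and scaffolds had log2 differences of the combination from vehicle between -0.83 and -0.56. Ncl encodes nucleolin, an abundant RNA-binding protein of the nucleolus. Ncl had 10.89 and 10.70 in combination tumours, 11.13 and 11.10 in PD-0325901 tumours, 10.97 and 11.07 in rapamycin tumours and 11.29 and 11.42 in vehicle tumours. Its 6 treated arrays were all below both vehicle arrays, the combination arrays were below the other 6, and the difference of the combination from vehicle was -0.56 ± 0.11 (limma adjusted p = 0.359), a 1.47-fold lower level. Nolc1, a chaperone of snoRNPs, had 9.88 and 9.71 in combination tumours, 10.40 and 10.09 in PD-0325901 tumours, 9.78 and 10.17 in rapamycin tumours and 10.70 and 10.55 in vehicle tumours. Again the 6 treated arrays were below the vehicle arrays, with a difference of the combination from vehicle of -0.83 ± 0.18 (limma adjusted p = 0.359). Gnl3, which encodes the nucleolar GTPase nucleostemin, differed by -0.77 and Npm1, which encodes the histone and ribosome chaperone nucleophosmin, by -0.58. The 3 further Npm1 probe sets, which are shared with Gm15484, gave differences of -0.56, -0.43 and -0.40.

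**Figure D3:**
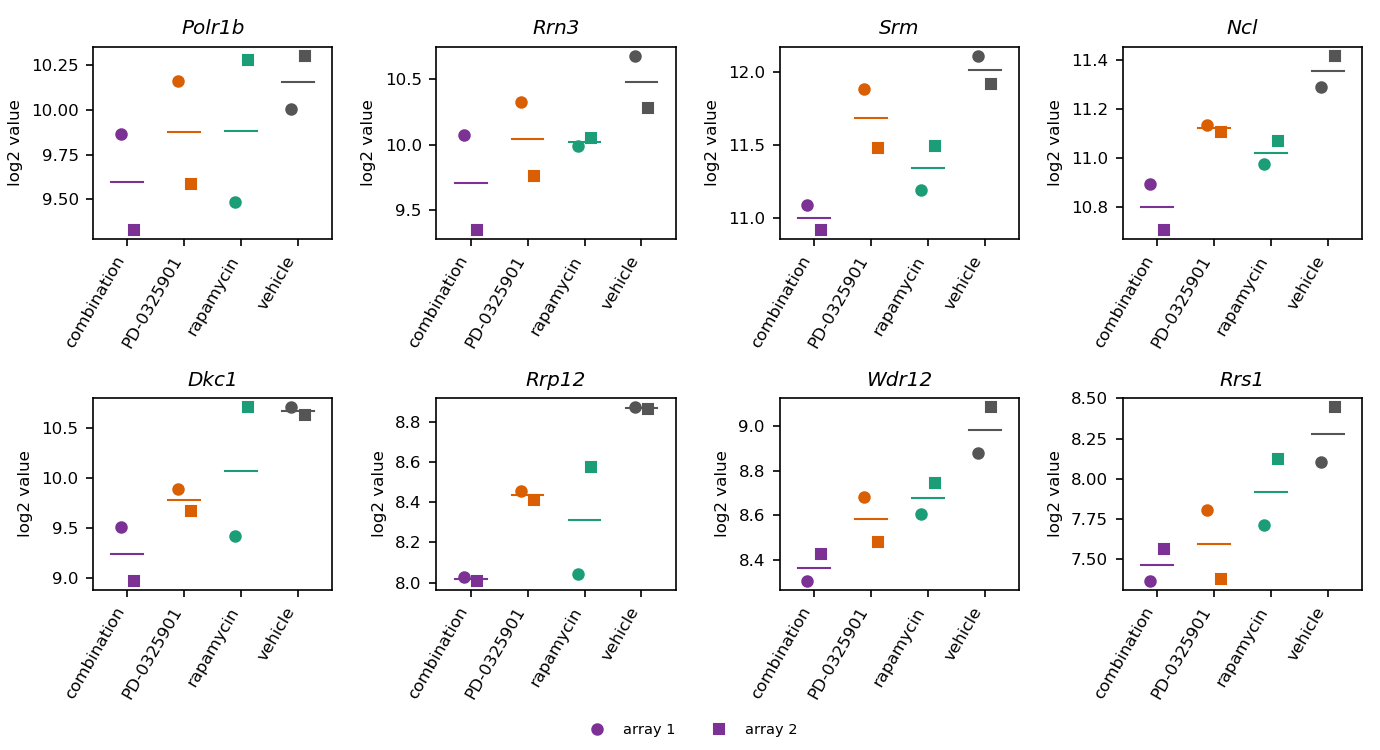
Log2 values of 8 members on each array (circle, array 1; square, array 2) with group means as lines; each panel has its own axis. In Ncl, Srm, Rrp12 and Wdr12 all 6 treated arrays lie below both vehicle arrays, whereas in Polr1b, Dkc1 and Rrs1 rapamycin array 2 lies inside the vehicle range or beside it.

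Members of both snoRNP classes were lower in the combination group. Box C/D particles carry the methyltransferase fibrillarin (Fbl) on the core proteins Nop56 and Nop58, and Rrp9 is specific to the U3 particle. Nop58 had 9.61 and 9.31 in combination tumours, 9.91 and 9.51 in PD-0325901 tumours, 9.24 and 10.00 in rapamycin tumours and 10.30 and 10.63 in vehicle tumours. All treated arrays were below the vehicle arrays, and the log2 difference of the combination from vehicle was -1.01 ± 0.29 (limma adjusted p = 0.437). Nop56, Rrp9 and Fbl differed by -0.86, -0.70 and -0.63. Box H/ACA particles carry the pseudouridine synthase dyskerin, encoded by Dkc1, with Nhp2 and Gar1. Dkc1 had 9.51 and 8.96 in combination tumours, 9.89 and 9.67 in PD-0325901 tumours, 9.42 and 10.71 in rapamycin tumours and 10.71 and 10.63 in vehicle tumours. Its 2 rapamycin arrays were 1.29 apart, one of them at the vehicle level, while the arrays of both groups with PD-0325901 were below 9.90. Dkc1 had the most negative difference of the combination from vehicle among the members, -1.43 ± 0.42 (limma adjusted p = 0.437), a 2.70-fold lower level. Gar1 and Nhp2 differed by -0.75 and -0.69.

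All 10 genes of the small subunit processome and 40S assembly had lower means in the combination group, between -0.85 and -0.20. Rrp12, a nuclear export factor of pre-ribosomes, had 8.03 and 8.01 in combination tumours, 8.46 and 8.41 in PD-0325901 tumours, 8.04 and 8.58 in rapamycin tumours and 8.87 and 8.86 in vehicle tumours. The arrays of the combination, PD-0325901 and vehicle groups were each within 0.05 of one another, and the difference of the combination from vehicle was -0.85 ± 0.18 (limma adjusted p = 0.359). Ltv1, which takes part in late 40S maturation and export, had 7.99 and 8.16 in combination tumours, 8.67 and 8.67 in PD-0325901 tumours, 8.33 and 8.79 in rapamycin tumours and 8.83 and 8.76 in vehicle tumours. Both combination arrays were below the other 6, and both arrays with PD-0325901 alone were below both vehicle arrays. Its difference of the combination from vehicle was -0.72 ± 0.16 (limma adjusted p = 0.374).

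The other members of the small subunit group varied more between arrays. Noc4l, a processome component, had 8.94 and 8.95 in combination tumours, 9.48 and 9.22 in PD-0325901 tumours, 9.13 and 9.69 in rapamycin tumours and 9.62 and 9.79 in vehicle tumours. Wdr43, a subunit of the processome that also supports RNA polymerase I transcription, had 10.07 and 9.93 in combination tumours, 10.39 and 10.27 in PD-0325901 tumours, 9.46 and 10.29 in rapamycin tumours and 10.74 and 10.87 in vehicle tumours. In Noc4l the combination arrays were the lowest, whereas in Wdr43 rapamycin array 1 was, and all 6 treated arrays of Wdr43 were below vehicle. Their differences of the combination from vehicle were -0.76 ± 0.20 and -0.81 ± 0.26 (limma adjusted p = 0.430 and 0.466). Rcl1, Utp20, Tsr1 and Nop14 differed by -0.81, -0.68, -0.65 and -0.42. Heatr1, at -0.24 ± 0.45, and the U3 protein gene Imp4, at -0.20 ± 0.13, were closest to 0.

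In the 12 genes of large subunit and 60S assembly the differences of the combination from vehicle lay between -0.84 and -0.36. Wdr12, with Pes1 and Bop1, forms the PeBoW complex needed for large subunit RNA processing. Wdr12 had 8.30 and 8.43 in combination tumours, 8.68 and 8.48 in PD-0325901 tumours, 8.61 and 8.75 in rapamycin tumours and 8.88 and 9.09 in vehicle tumours. The treated arrays were all below the vehicle arrays, and the log2 difference of the combination from vehicle was -0.62 ± 0.13 (limma adjusted p = 0.359). Bop1 and Pes1 differed by -0.76 and -0.58. Rrs1, which helps load the 5S particle, had 7.36 and 7.56 in combination tumours, 7.81 and 7.38 in PD-0325901 tumours, 7.72 and 8.12 in rapamycin tumours and 8.11 and 8.45 in vehicle tumours. The arrays with PD-0325901, alone or combined, were below both vehicle arrays, rapamycin array 2 was inside the vehicle range, and the difference of the combination from vehicle was -0.81 ± 0.22 (limma adjusted p = 0.436).

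Ddx18, an RNA helicase of the nucleolus, had 9.90 and 9.82 in combination tumours, 10.14 and 9.88 in PD-0325901 tumours, 10.08 and 10.26 in rapamycin tumours and 10.25 and 10.60 in vehicle tumours. Its arrays with PD-0325901 were below vehicle and its rapamycin arrays overlapped vehicle by 0.01. Noc3l, a large subunit export factor, had 9.53 and 9.61 in combination tumours, 9.73 and 9.48 in PD-0325901 tumours, 9.30 and 9.76 in rapamycin tumours and 9.86 and 10.13 in vehicle tumours. All 6 treated Noc3l arrays were below vehicle, with the 3 treated groups overlapping one another. The differences of the combination from vehicle were -0.56 ± 0.16 for Ddx18 and -0.42 ± 0.19 for Noc3l (limma adjusted p = 0.437 and 0.597). Among the others, Grwd1, Rrp1b, Nip7, Ftsj3, Nop2 and Nop16 differed by -0.84, -0.76, -0.64, -0.48, -0.43 and -0.36.

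Ddx21 and Srm had differences beyond -1. Ddx21, a helicase that acts at ribosomal DNA and on pre-rRNA, differed between the combination and vehicle by -1.04 ± 0.26 (limma adjusted p = 0.404), a 2.05-fold lower level. Srm encodes spermidine synthase, a polyamine enzyme rather than a nucleolar protein, and is a known Myc target. Srm had 11.08 and 10.91 in combination tumours, 11.89 and 11.48 in PD-0325901 tumours, 11.19 and 11.49 in rapamycin tumours and 12.11 and 11.91 in vehicle tumours. The combination arrays were below all others and the vehicle arrays above all others, and the log2 difference was -1.01 ± 0.19 (limma adjusted p = 0.359), a 2.02-fold lower level.

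With PD-0325901 alone against vehicle, 37 of 38 members had a lower mean (53.8% of all genes), with a median log2 difference of -0.29 against -0.02 over all genes. The arrays of the PD-0325901 and vehicle groups did not overlap for 23 members, all lower (20.9% of all genes). The 3 members with the smallest p were Wdr12 at -0.40 ± 0.13, Rrs1 at -0.69 ± 0.22 and Nop58 at -0.76 ± 0.29 (limma adjusted p = 0.723, 0.723 and 0.835). Ftsj3, an rRNA methyltransferase, was the member with a higher mean, at 0.13 ± 0.25. No member passed the adjusted threshold, and 5 were lower at an unadjusted p under 0.05, against 2.38% of all genes. The number of such members changed with the array left out. The median was -0.46 without PD-0325901 array 1 and -0.13 without PD-0325901 array 2, the array with the high erythroid markers, so its size rested on which array stood for the group.

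With rapamycin alone against vehicle, all 38 members had a lower mean (54.1% of all genes) and the median log2 difference was -0.45, against -0.02 over all genes. Arrays did not overlap for 22 members, all lower (17.9% of all genes). Gnl3, Nolc1 and Srm had differences of -0.84 ± 0.21, -0.65 ± 0.18 and -0.67 ± 0.19 (limma adjusted p = 0.964 for each). The most negative was that of Nip7, a large subunit processing factor, at -1.03 ± 0.38. Nip7 had 7.72 and 8.72 in rapamycin tumours and 9.21 and 9.28 in vehicle tumours, so rapamycin array 1 was much further below vehicle than rapamycin array 2. No member passed the adjusted threshold, and 12 were lower at an unadjusted p under 0.05, against 2.15% of all genes. The size moved with single arrays more than in any other comparison with vehicle. Without rapamycin array 1 the median was -0.13 and 30 of 38 members were lower. Without rapamycin array 2 the median was -0.80 and 37 were lower. The count at an unadjusted p under 0.05 also changed with the array left out.

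**Figure D4:**
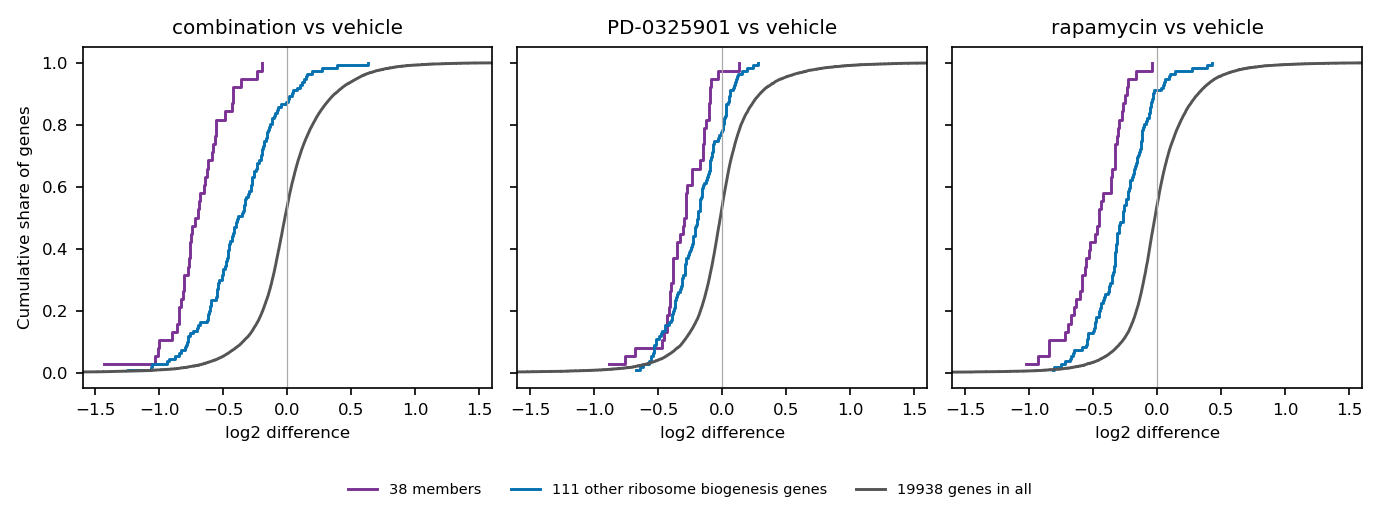
Cumulative share of genes (vertical axis) at or below a log2 difference from vehicle (horizontal axis, drawn from -1.6 to 1.6) for the combination, PD-0325901 and rapamycin, for the 38 measured members, 111 other ribosome biogenesis genes and all 19938 genes. The members' curve lies left of that of all genes in each panel, with medians of -0.71, -0.29 and -0.45, and the 111 other genes lie between, with medians of -0.39, -0.19 and -0.27.

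The main effect of a drug is the mean of its log2 difference without and with the other drug, so it uses all 8 arrays. For PD-0325901 it was below 0 for 37 of 38 members (54.0% of all genes), with a median of -0.24 against -0.01 over all genes. The 4 arrays with PD-0325901 were all below the 4 without it for only 1 member, Imp4, a share of 2.63% near the 2.39% of all genes. The 8 members with the smallest p were Wdr12 (-0.36 ± 0.09), Rrs1 (-0.57 ± 0.16), Ddx18 (-0.36 ± 0.11), Rrp12 (-0.36 ± 0.12), Ncl (-0.23 ± 0.08), Dkc1 (-0.86 ± 0.30), Noc4l (-0.41 ± 0.14) and Ltv1 (-0.31 ± 0.12), with limma adjusted p between 0.320 and 0.485. They came from the large subunit, small subunit, H/ACA and scaffold classes, so no class held them all. The differences of Nip7 and Nop2 were -0.01 and -0.05, and the nucleophosmin gene Npm1 was at -0.05. No member passed the adjusted threshold, and 9 were lower at an unadjusted p under 0.05, against 4.14% of all genes. The number of such members changed with the array left out. The median was -0.40 without rapamycin array 1, with all 38 members below 0, and -0.08 without rapamycin array 2, with 24 of 38 below 0. It was -0.16 without PD-0325901 array 2. For Dkc1 the main effect lay between -1.18 and -0.54 when 1 array was left out.

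The rapamycin main effect was below 0 for all 38 members (53.8% of all genes), with a median of -0.47 against -0.01 over all genes. The 3 members with the smallest p were Srm at -0.68 ± 0.13, Nolc1 at -0.55 ± 0.13 and Ncl at -0.33 ± 0.08 (limma adjusted p = 0.752 for each). For Ncl, Gnl3 and Npm1, all from the scaffold class, the 4 arrays with rapamycin were all below the 4 without it (1.94% of all genes). Imp4 was at -0.00 ± 0.09, and the next nearest to 0 were Heatr1 at -0.19 and Ddx18 at -0.20. No member passed the adjusted threshold, while 19 were lower at an unadjusted p under 0.05, against 2.4% of all genes. That count changed with the array left out. The median was -0.30 without rapamycin array 1, with 37 of 38 below 0. The smallest p that 4 arrays against 4 can give in an exact permutation test is 0.0286.

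**Figure D5:**
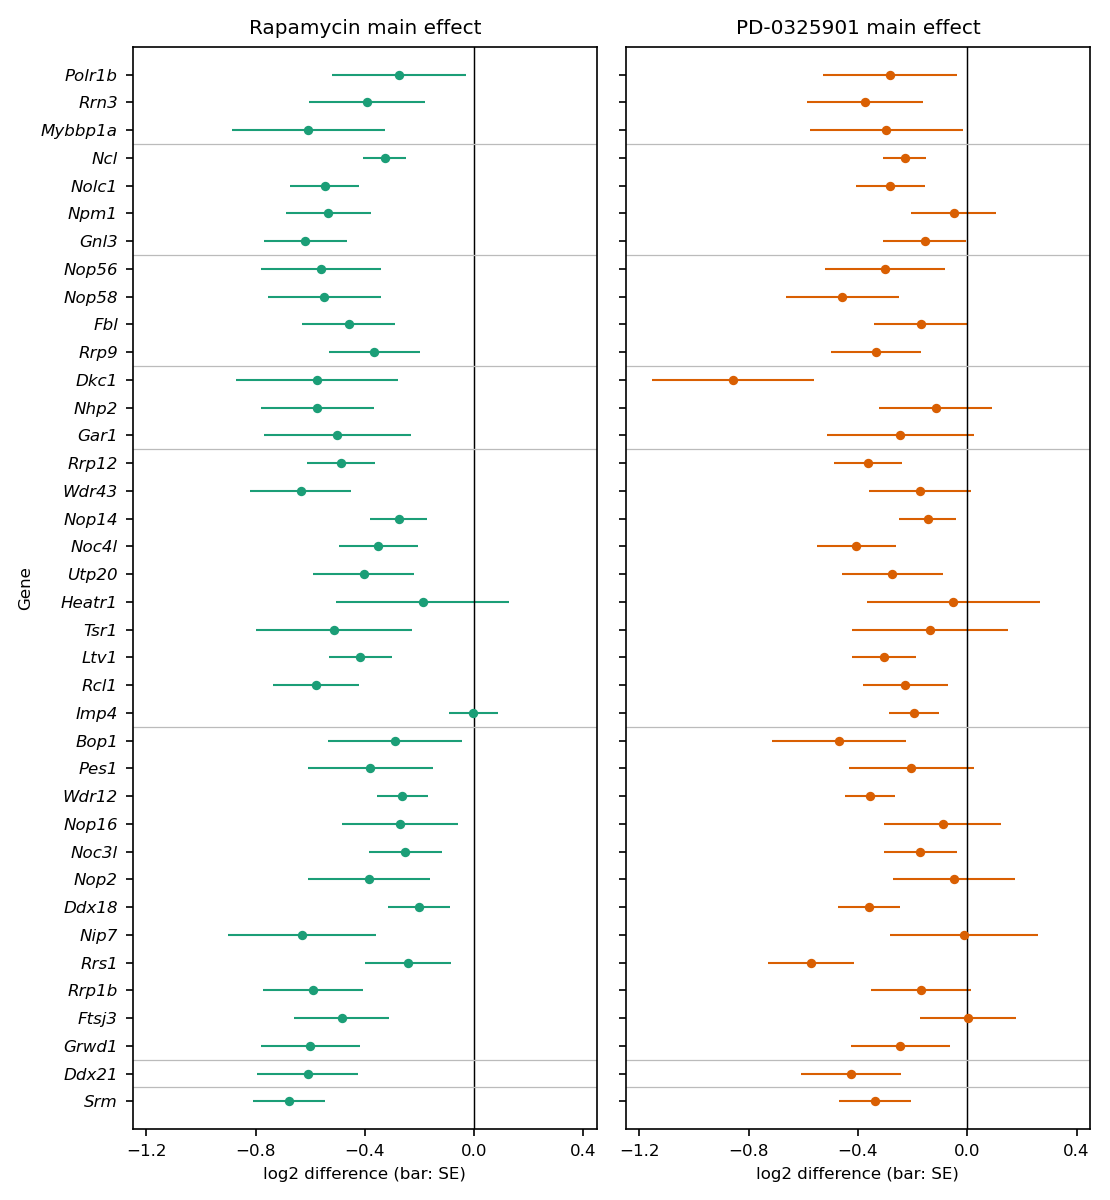
Log2 difference for the main effect of rapamycin (left) and of PD-0325901 (right) for each of the 38 measured members, with the limma SE as bars; grey lines separate the roles. All rapamycin points lie at or below 0, with a median of -0.47, and 37 of 38 PD-0325901 points lie below 0, with a median of -0.24.

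The combination was also set against each drug alone. Against PD-0325901, 37 of 38 members were lower in the combination (52.1% of all genes), with a median log2 difference of -0.40, and the arrays did not overlap for 27 (18.2% of all genes). Srm and Ltv1 had differences of -0.68 ± 0.19 and -0.59 ± 0.16, and limma's smallest adjusted p among the members was 0.9998, with 8 lower at an unadjusted p under 0.05 (1.27% of all genes). The number of such members changed with the array left out. Against rapamycin, 31 of 38 were lower in the combination (51.7% of all genes), with a median of -0.23, and arrays did not overlap for 11 (15.1% of all genes). Ltv1 had the smallest p there, with -0.48 ± 0.16 (limma adjusted p = 0.663), and it was the 1 member at an unadjusted p under 0.05 (2.71% of all genes). Without rapamycin array 1 the median was -0.55, with all 38 members lower, and without rapamycin array 2 it was 0.10, with 17 lower. Without combination array 2 it was -0.10. The direction of this comparison thus depended on which rapamycin array was used.

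The interaction, the effect of PD-0325901 with rapamycin minus its effect without rapamycin, had a median of 0.06 over the members, with 16 of 38 below 0 (48.2% of all genes). The 3 members with the smallest p were Wdr43 at 0.60 ± 0.37, Noc3l at 0.43 ± 0.27 and Ltv1 at -0.36 ± 0.23 (limma adjusted p = 0.9999 for each). For Wdr43 and Noc3l the combination was less far below vehicle than the 2 single differences add up to, and for Ltv1 it was further below. No member had an unadjusted p under 0.05, where 1.14% of all genes did below 0 and 1.03% above 0. The number of such members changed with the array left out. The median was -0.28 without rapamycin array 1 and 0.40 without rapamycin array 2, and it was also of the opposite sign without PD-0325901 array 2 (-0.08) or combination array 1 (-0.01).

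Across the 4 groups, the vehicle mean was the highest for 37 of 38 members (30.8% of all genes) and the combination mean the lowest for 30 (28.2% of all genes). Both vehicle arrays lay above all 6 treated arrays for 15 members (5.2% of all genes), and both combination arrays below the other 6 for 8 (4.45% of all genes), or below the other 5 for 27 when rapamycin array 1 was left out (7.16% of all genes). The order combination below rapamycin below PD-0325901 below vehicle held for 22 (6.96% of all genes). Without rapamycin array 1 that order held for 10 (4.96% of all genes), and the order with the single drugs exchanged for 18 (5.48% of all genes). In that setting the combination was lowest for 37 (26.4% of all genes) and vehicle highest for 29 (26.6% of all genes). The place of the combination below all other groups was therefore shared by more members without that array, and the order of the single drugs differed. These orders were not recomputed without rapamycin array 2. In that setting the median log2 difference of the combination from rapamycin was 0.10, so the place of the combination rested on which rapamycin array was used.

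The remaining genes of the pathway were taken from a list of 113 other ribosome biogenesis genes, of which 111 were measured. In the combination against vehicle 97 of the 111 were lower (53.7% of all genes), with a median log2 difference of -0.39, and for 76 the arrays did not overlap in that direction (22.3% of all genes). No gene of the list passed the adjusted threshold in any comparison, and 31 were lower and 2 higher at an unadjusted p under 0.05 in the combination against vehicle (4.0% and 5.08% of all genes). By role, 10 of 13 RNA polymerase I genes, 9 of 10 snoRNP genes, 35 of 40 small subunit genes, 34 of 38 large subunit genes and 9 of 10 exosome genes were lower. The PD-0325901 main effect was below 0 for 86 of the 111 (54.0% of all genes) and the rapamycin main effect for 98 (53.8% of all genes). In both the members' medians were further below 0 than those of this list, which were -0.13 and -0.23.

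At an unadjusted p under 0.05 the PD-0325901 main effect was below 0 for 14 genes of this list (4.14% of all genes) and above 0 for 2 (5.47% of all genes), and the rapamycin main effect was below 0 for 22 (2.4% of all genes) and above 0 for 1 (3.15% of all genes). The 3 genes with the smallest p in each direction are described, so the even number of lower and higher genes named comes from that choice. Polr1d, a subunit shared by RNA polymerases I and III, had 9.91 and 9.71 in combination tumours, 9.92 and 9.88 in PD-0325901 tumours, 9.94 and 10.11 in rapamycin tumours and 10.56 and 10.59 in vehicle tumours. Its 4 arrays with PD-0325901 were below the 4 without it, and its PD-0325901 main effect was -0.44 ± 0.08 (limma adjusted p = 0.195). This averages -0.67 ± 0.12 without rapamycin and -0.21 ± 0.12 with it, and its rapamycin arrays were also below both vehicle arrays. Gnl2, a GTPase of 60S assembly, had 9.45 and 9.38 in combination tumours, 9.82 and 9.76 in PD-0325901 tumours, 9.67 and 9.80 in rapamycin tumours and 10.16 and 10.23 in vehicle tumours. The combination arrays were below and the vehicle arrays above all others, with a rapamycin main effect of -0.42 ± 0.07 and a PD-0325901 main effect of -0.36 ± 0.07 (limma adjusted p = 0.752 and 0.205). Ebna1bp2, a large subunit factor, had a PD-0325901 main effect of -0.38 ± 0.09. The rapamycin main effects of Taf1d, a subunit of the polymerase I selectivity factor, and of the processome gene Utp11 were -0.72 ± 0.13 and -0.44 ± 0.08. That of Utp11 averages -0.68 ± 0.12 without PD-0325901 and -0.21 ± 0.12 with it.

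Among the genes with a main effect above 0, Ttf1 encodes the factor that terminates RNA polymerase I transcription. Ttf1 had 8.76 and 8.78 in combination tumours, 8.37 and 8.47 in PD-0325901 tumours, 8.59 and 8.48 in rapamycin tumours and 8.29 and 7.99 in vehicle tumours. Its arrays with rapamycin were above those without it, by as little as 0.01 between single arrays, and its rapamycin and PD-0325901 main effects were 0.37 ± 0.09 and 0.26 ± 0.09 (limma adjusted p = 0.752 and 0.456). The selectivity factor gene Taf1c and the nuclear exosome nuclease gene Exosc10 had PD-0325901 main effects of 0.25 ± 0.10 and 0.18 ± 0.09. Nop53, a 60S factor, and the GTPase gene Gnl3l had rapamycin main effects of 0.23 ± 0.10 and 0.26 ± 0.19. Exosc10, Nop53 and Gnl3l did not reach an unadjusted p under 0.05 in these comparisons.

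Myc, named above with the E-box, and its relative Mycn were measured too. Myc had 11.05 and 10.77 in combination tumours, 11.45 and 10.85 in PD-0325901 tumours, 11.03 and 11.60 in rapamycin tumours and 11.72 and 11.50 in vehicle tumours. Its combination arrays were below its vehicle arrays and rapamycin array 2 lay between the vehicle arrays, with a PD-0325901 main effect of -0.43 ± 0.19 and a rapamycin main effect of -0.27 ± 0.19 (limma adjusted p = 0.561 and 0.910). Mycn had 8.65 and 7.38 in combination tumours, 7.79 and 7.68 in PD-0325901 tumours, 7.51 and 7.86 in rapamycin tumours and 7.49 and 7.38 in vehicle tumours. The combination arrays were 1.27 apart, and the PD-0325901 main effect of 0.31 ± 0.28 (limma adjusted p = 0.825) was -0.0035 without combination array 1.

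Several members carry snoRNA genes inside their transcription units, from which snoRNAs are released by splicing. By the RefSeq annotation 7 members host 19 snoRNA genes, and 4 of these had a probe set of their own. Snord53, hosted by Wdr43, had 8.52 and 8.97 in combination tumours, 9.27 and 9.00 in PD-0325901 tumours, 8.07 and 8.69 in rapamycin tumours and 9.47 and 9.21 in vehicle tumours. Its arrays with rapamycin were below those without it, as a rapamycin main effect of -0.67 ± 0.18 (limma adjusted p = 0.756), beside -0.63 for Wdr43 itself. Snora75 and Snord82, hosted by Ncl, had rapamycin main effects of -0.27 ± 0.26 and -0.02 ± 0.10, beside -0.33 for Ncl, and Snord57, hosted by Nop56, had 0.08 ± 0.16, beside -0.56 for Nop56.

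A second probe set existed for Fbl, Wdr12 and Ddx18. The differences of the combination from vehicle were -0.83, -0.75 and -0.42 on these, against -0.63, -0.62 and -0.56 on the probe sets used, so direction was shared and size was not. The shared probe set of Ppan had 9.48 and 9.32 in combination tumours, 9.66 and 9.38 in PD-0325901 tumours, 9.35 and 9.61 in rapamycin tumours and 9.75 and 9.89 in vehicle tumours. All 6 treated arrays were below vehicle there, but the value cannot be assigned to Ppan alone.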

How the data were processed

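RNA from the tumours was extracted with Trizol and cleaned on columns, amplified with a whole-transcript kit and labelled with biotin, per the labels' protocols. The deposited values are on a log2 scale, 1 per probe set and array, which was read from their range (3.36 to 14.36). Neither the software nor the normalization behind them, nor any scan date or batch, is given in the sources used here. Of 35512 probe sets, 21789 are annotated to a single gene, 1621 to several and 12101 to none, and 1 is empty. The probe set with the highest mean stood for each of 19938 genes, with no filter on low values.

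The sample titles gave each array its group and number. A model of 4 group means was fitted to all genes with limma 3.58.1 in R 4.3.3 (lmFit and eBayes, two-sided, 4 residual degrees of freedom), with Benjamini-Hochberg adjustment over all genes and a threshold of 0.05. Each difference is of log2 group means, with limma's SE. The fit was run on simulated data with planted log2 changes larger than any member's difference and with noise drawn separately for each gene. It does not show how the fit performs for differences of the members' size. The members, their roles, the list of 113 other genes of the pathway and the marker lists were chosen with earlier results of these data known, so no list was given a test. Values on all arrays are given for Polr1b and Rrn3, for the 8 members of smallest p in the main effect of PD-0325901, for the first 3 in the rapamycin main effect, the interaction, PD-0325901 against vehicle and the combination against vehicle, and for the members with the highest and lowest mean level, and, from the other list, the first 3 genes in each direction of each main effect were named. Alternatives covered normalization, centring, a level filter, the variance model, the probe set per gene, the arrays in the fit, the replicate number and each array left out. The number of arrays limits the precision.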

Additional observations from a re-analysis of the deposited data

How the results depend on the processing

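Under every alternative run, 0 members passed an adjusted p of 0.05 in the 8 comparisons, and with all 8 arrays 0 passed 0.1. The medians over the members kept their sign under quantile normalization, median centring, the level filter, the mean of all probe sets, the second probe sets and the fit of the arrays compared. In 3 of the 8 comparisons the median moved by more than the pooled SD of the array scores (0.261) when a rapamycin array was left out, and in the other 5 it moved by less with any array left out. In those 3 the ranges over the left-out arrays were -0.80 to -0.13 for rapamycin against vehicle, -0.55 to 0.10 for the combination against rapamycin, and -0.28 to 0.40 for the interaction, and the cause was not tested. The pooled SD is itself raised by the rapamycin arrays, whose SD was 0.46, so moving by less does not show that a median is stable. That of the PD-0325901 main effect ran from -0.40 to -0.08. A group left with 1 array was assumed to vary like the others, so counts at an unadjusted p are not given for these fits. Of 36 values of single genes, those of Mycn changed sign without combination array 1: over the left-out arrays they ran from -0.0035 to 0.63 for the PD-0325901 main effect and from -0.055 to 0.58 for the rapamycin main effect.

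With the array number as a replicate block, 0 members were called in each comparison. The labels do not say that a number pairs arrays, and the deviations of same-numbered arrays correlated between -0.28 and 0.18, so the numbers are not shown to pair samples. The vehicle and rapamycin numbers correlated at -0.28, and exchanging the rapamycin numbers, an alternative chosen after seeing the data, also gave 0 calls for the rapamycin main effect and for rapamycin against vehicle. The second probe sets and the order of the groups without rapamycin array 1 were also added after seeing the data, and the second probe sets gave 0 calls. With 2 arrays a group, a difference that misses the threshold is not shown to be absent.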
